A study of Caenorhabditis elegans with 8 samples.

Results

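The genes described here build and anchor the contractile machinery of the body wall muscle of the nematode Caenorhabditis elegans, the striated muscle used for crawling. They were taken by symbol from the platform annotation of an Affymetrix array: 35 genes of 17118 with a probe set of a single symbol, each represented by its brightest such probe set. The set holds 7 genes of the thick filament, 5 of the M-line and giant kinases, 10 of the thin filament, 4 of the dense body and Z-disc, 8 of the integrin attachment complex and 1 of calcium release.

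All 8 arrays measured whole adult worms of strain N2, the standard laboratory wild type, collected on day 4 of adulthood. At the young adult stage every group was put on plates containing FUDR, an agent that blocks the production of progeny. Cholesterol, which this animal cannot make, was withheld since hatching in the deprived groups. The 4 groups of 2 arrays were fasted worms without cholesterol, fed worms without cholesterol, fasted worms with cholesterol and fed worms with cholesterol. How long the fast lasted is not settled: a label field gives 24 h, and the protocol gives 48 h from day 2 of adulthood. The comparisons were fasted against fed worms without and with cholesterol, deprived against supplied worms when fasted and when fed, the interaction of both treatments, and the average effect of each treatment over 4 against 4 arrays, 7 contrasts in all.

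In a sarcomere, myosin thick filaments, joined at the M-line, pull on actin thin filaments, which are anchored in dense bodies, the worm's counterpart of vertebrate Z-discs. Calcium released through the ryanodine receptor binds troponin C on the thin filament, and this relieves the block that troponin I and tropomyosin place on myosin binding. Dense bodies and M-lines are tied through integrins and their cytoplasmic partners to perlecan in the basement membrane, so that force passes to the cuticle.

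Values are log2(signal + 1) of the deposited intensities, and differences are on that scale with the standard error (SE) of a limma fit over all arrays. A gene is said to have risen or fallen at an adjusted p under 0.05, with the adjustment over all probe sets of the contrast. Of the 35 members, 0 lay below the lower quartile of all probe sets (4.69) in their mean over arrays, and 2 lay below the median (6.12). Array medians lay between 66.7 and 70.9 intensity units, and the correlation across probe sets was 0.992 to 0.994 within groups, against 0.972 to 0.992 between groups. Since whole worms were measured, fewer muscle cells and less RNA per muscle cell cannot be told apart.

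Within each fasted group the second array read lower than the first for most members. That held for 27 of 35 in the deprived fasted worms (median gap -0.26) and for 29 of 35 in the fasted worms with cholesterol (median gap -0.31), while over all genes the second array was lower for 54.4% and 52.6%. In fed worms the split was 19 of 35 without cholesterol (median gap -0.01) and 17 of 35 with it (median gap 0.03). The widest gaps were 1.01 for mlc-1 in the deprived fasted worms and 1.18 for tni-1 in the fasted worms with cholesterol. Values of the called members are therefore given by array. Over all probe sets, same-numbered arrays deviated together in all 4 groups. Results of a fit with the replicate number as a block are therefore given where the block changes a member's call. They are also given where it moves a count by over 1.5 times. The block is a shift common to all groups, so it does not describe a gap seen in the fasted groups alone. The block took away 0 member calls and added 25 over the 7 contrasts.

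Fasting lowered part of the contractile apparatus, among them troponins, the thin-filament protein gene unc-87 and dense body genes. In deprived worms 5 of 35 members fell (14.3%) and 0 rose, against 2.09% of all genes lower and 1.07% higher. In worms with cholesterol 6 fell (17.1%) and 0 rose, against 3.24% of all genes lower and 2.18% higher (2.73% and 4.32% after each array was shifted to an equal median of its bright probe sets). In both contrasts 4 members fell, which is 4 of 5 and 4 of 6: unc-27, tnt-2, unc-87 and atn-1. The contrasts share no array but use the same spread of each gene, estimated over all arrays, so these calls are not independent. The share of all genes that fell in both was not taken. The median member differed by -0.31 without cholesterol and -0.22 with it, where the medians of all genes were -0.02 and 0.08. Between replicates, the median of the 35 members had a pooled SD of 0.206. With the block, 11 fell without cholesterol, against 3.98% of all genes, and 12 with it, against 7.31%, and 0 rose in either, where 4.04% and 7.07% of all genes did. The members added were unc-54, mlc-1 and mup-2 in both, myo-3, pat-10 and alp-1 without cholesterol, and ttn-1, dim-1 and unc-95 with it. Averaged over both cholesterol states, 12 members fell and 1 rose, against 5.32% of all genes lower and 5.65% higher (4.46% and 8.03% after the shift), and in 10 members all 4 fasted arrays lay below all 4 fed arrays, against 6.26% of all genes. With the block 16 fell and 2 rose on average, against 9.47% lower and 10.7% higher. Without the second array of the fasted worms with cholesterol, or either array of the fed worms with cholesterol, the count for fasting with cholesterol was 0.

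**Figure D1:**
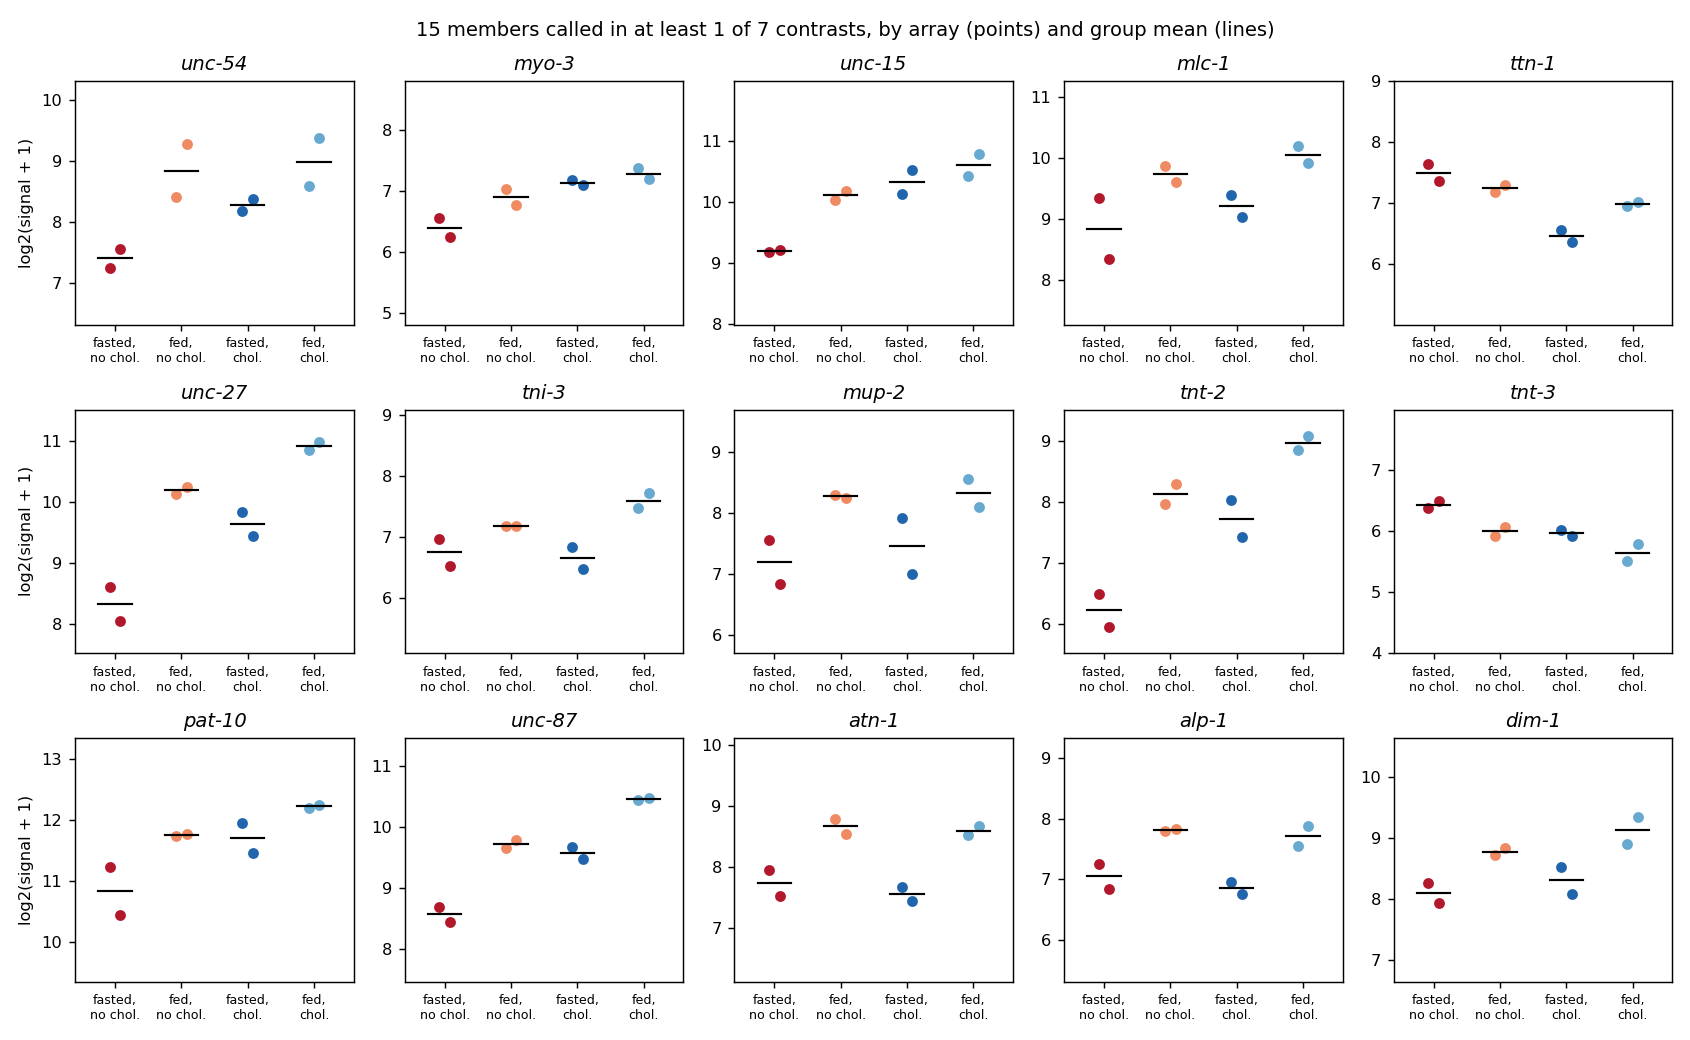
Signals of the 15 members called in at least 1 contrast, one panel per gene. Points are arrays, black lines group means, and the y axis is log2(signal + 1), each panel spanning its own 4-unit range. The unc-27, tnt-2 and unc-87 panels are lowest in deprived fasted worms and highest in fed worms with cholesterol, while ttn-1 is highest in deprived fasted worms.

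Deprivation lowered fewer members, and in fed worms unc-87 was the single call. There 1 member fell (2.86%) and 0 rose, against 0.713% of all genes lower and 0.572% higher. In fasted worms 4 fell (11.4%), namely unc-15, unc-27, tnt-2 and unc-87, and 1 rose (2.86%), namely ttn-1, against 0.462% lower and 0.701% higher of all genes. Averaged over both feeding states, 5 fell and 1 rose, against 2.13% lower and 2.25% higher. With the block 7 members fell and 1 rose in fasted worms, against 1.5% of all genes lower and 2.16% higher, the added falls being those of unc-54, myo-3 and mlc-2. In fed worms unc-87 was again the single call, against 2.75% lower and 1.95% higher. On average 9 then fell and 2 rose, against 4.98% lower and 4.64% higher. The deprivation contrasts share no array with each other but share arrays with the fasting contrasts, and all contrasts use the same spread of each gene. The median member differed by -0.23 in fasted worms and by -0.18 in fed worms, with medians of all genes at -0.05 and 0.05. Without either array of the fasted worms with cholesterol, the count for deprivation in fasted worms was 0.

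No member passed the interaction test, which asks whether the fasting effect differed between the cholesterol states. By limma 0 of 35 were called, 2 had an unadjusted p under 0.05, and the smallest adjusted p was 0.381, that of ttn-1, against 0.0526% of all genes called in each direction. The larger fasting differences of unc-27, tnt-2 and unc-15 in deprived worms are therefore not shown to differ from those in worms with cholesterol. The lowest group mean was that of the deprived fasted worms in 18 of 35 members (51.4%), against 22.6% of all genes, and the highest was that of the fed worms with cholesterol in 19 (54.3%), against 18.6%. Both held together in 14 members, and in 7.45% of all genes.

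**Figure D2:**
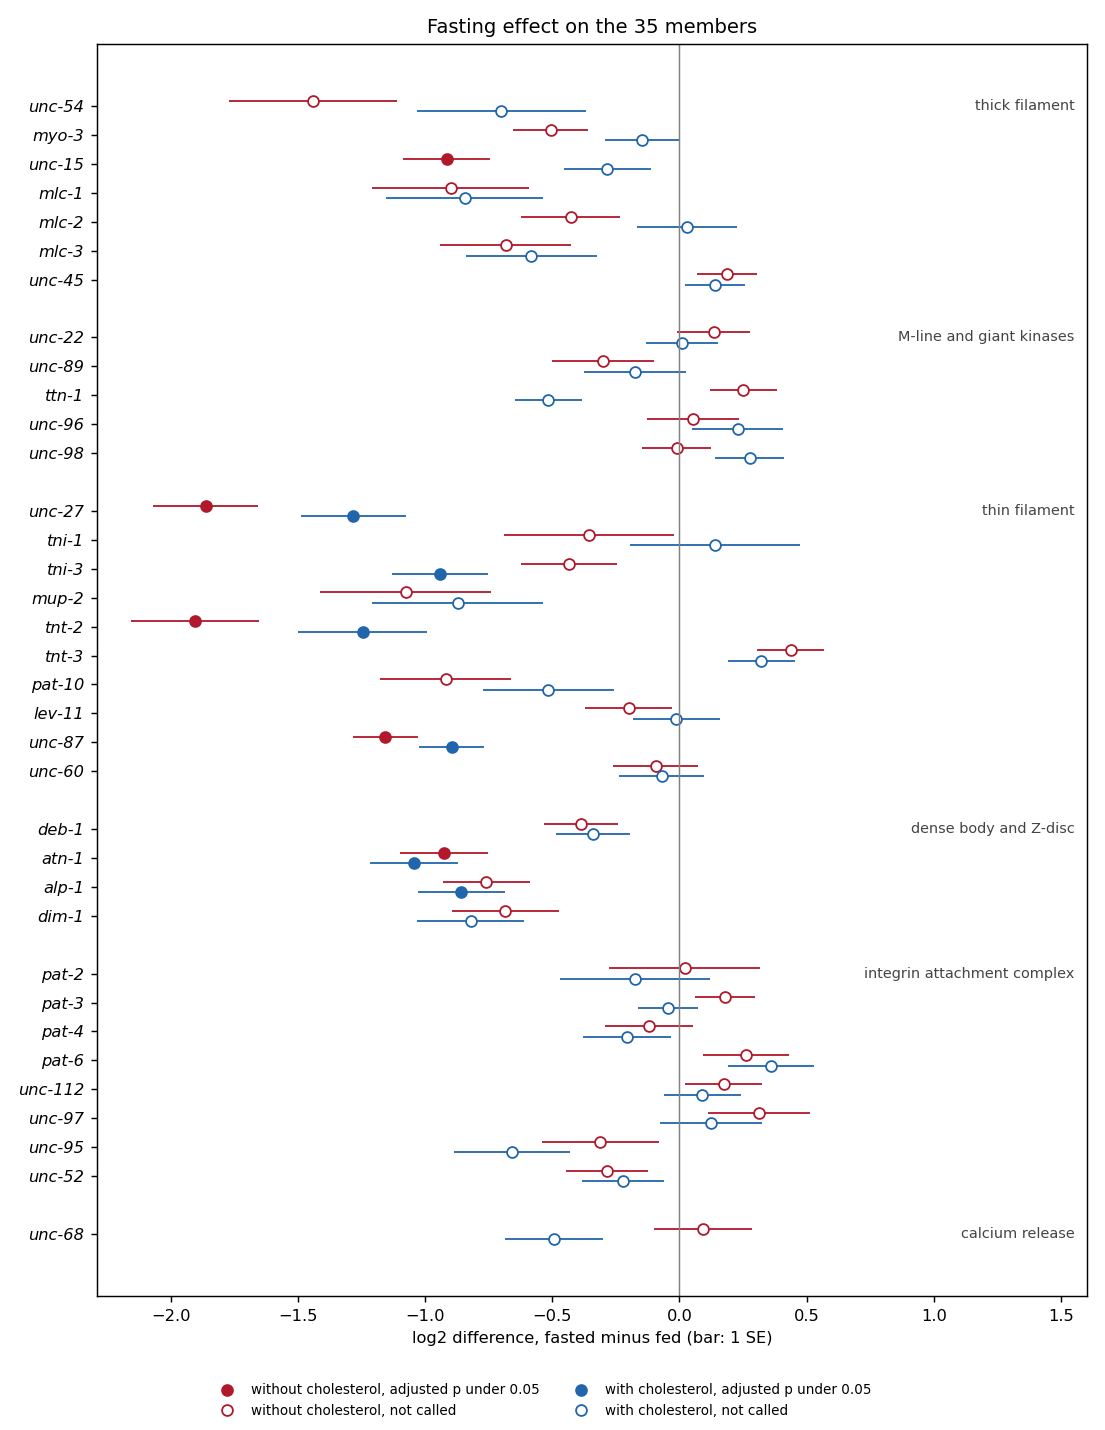
Fasting effect on each of the 35 members, ordered by role, as the log2 difference of fasted minus fed worms with bars of 1 SE, without cholesterol (red) and with it (blue); filled points passed an adjusted p of 0.05. Falls gather in the thin filament and the dense body, and the integrin attachment genes scatter around 0.

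The thin filament held most of the calls, and its regulatory proteins most of those. Averaged over cholesterol states, 6 of the 10 thin-filament genes (60%) fell with fasting and 1 (10%) rose, against 5.32% and 5.65% of all genes. The thin-filament median was -0.70. The troponin I gene unc-27 read 8.61 and 8.06 in deprived fasted worms, 10.14 and 10.26 in deprived fed worms, 9.84 and 9.44 in fasted worms with cholesterol, and 10.86 and 10.98 in fed worms with cholesterol. All 4 fasted arrays lay below all 4 fed arrays, and the deprived fasted worms lay lowest. Fasting lowered unc-27 by 1.86 ± 0.21 in deprived worms (adjusted p = 0.00418, 3.63-fold) and by 1.28 ± 0.21 with cholesterol (adjusted p = 0.0164, 2.43-fold). Deprivation lowered it in fasted worms (-1.30 ± 0.21, adjusted p = 0.0373), and its difference in fed worms was -0.72 ± 0.21 (adjusted p = 0.18).

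The troponin T gene tnt-2 followed the same order of groups. It read 6.50 and 5.96 in deprived fasted worms, 7.97 and 8.30 in deprived fed worms, 8.03 and 7.43 in fasted worms with cholesterol, and 8.87 and 9.09 in fed worms with cholesterol. Fasted and fed arrays did not overlap within either cholesterol state, although the first fasted array with cholesterol lay above the first fed array without it. The fall with fasting was 1.90 ± 0.25 without cholesterol (adjusted p = 0.00968, 3.74-fold) and 1.25 ± 0.25 with it (adjusted p = 0.0376, 2.37-fold). In fasted worms deprivation lowered tnt-2 by 1.50 ± 0.25 (adjusted p = 0.0459), and in fed worms the difference was -0.84 ± 0.25 (adjusted p = 0.198).

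The gene unc-87, whose product binds actin through calponin-like repeats and stabilises thin filaments, was the one member that fell in each of the 4 simple contrasts. Its arrays read 8.68 and 8.44 in deprived fasted worms, 9.65 and 9.78 in deprived fed worms, 9.66 and 9.47 in fasted worms with cholesterol, and 10.45 and 10.47 in fed worms with cholesterol. Replicates lay close together, and the single treatments, fasting with cholesterol and deprivation with food, gave overlapping levels between the 2 extremes. Fasting lowered it by 1.16 ± 0.13 without cholesterol (adjusted p = 0.00393) and by 0.90 ± 0.13 with it (adjusted p = 0.00976). Deprivation lowered it by 1.002 ± 0.13 in fasted worms (adjusted p = 0.0151) and by 0.74 ± 0.13 in fed worms (adjusted p = 0.0445). Its other 2 probe sets were called lower too in both fasting contrasts and in the average effects, but of these 2, 1 was called in deprivation of fasted worms and 0 in deprivation of fed worms. The call in fed worms was lost in 11 of the 14 alternative settings. All 3 have names ending in _s_at or _x_at, which mark probes that may bind transcripts of other genes.

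The remaining troponins did not act as one. A second troponin I gene, tni-3, read 6.98 and 6.52 in deprived fasted worms, 7.19 and 7.18 in deprived fed worms, 6.84 and 6.47 in fasted worms with cholesterol, and 7.48 and 7.72 in fed worms with cholesterol. It fell with cholesterol present (-0.94 ± 0.19, adjusted p = 0.0361), and its difference in deprived worms was -0.43 ± 0.19 (adjusted p = 0.327). The other tni-3 probe set had the same sign with cholesterol but was not called, and the call was lost with the mean over its probe sets. The remaining troponin I gene, tni-1, was called in no contrast, with a first array of 7.88 and a second of 6.69 in fasted worms with cholesterol.

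The other troponin T genes moved in opposite directions. Muscle contraction needs mup-2, whose arrays read 7.57 and 6.84 in deprived fasted worms, 8.31 and 8.26 in deprived fed worms, 7.92 and 7.01 in fasted worms with cholesterol, and 8.56 and 8.11 in fed worms with cholesterol. It fell on average over cholesterol states (-0.97 ± 0.24, adjusted p = 0.0438), with all 4 fasted arrays below all 4 fed arrays, and with the block also in each state (adjusted p = 0.0125 without and 0.0215 with cholesterol). In contrast tnt-3 rose on average with fasting (0.38 ± 0.09, adjusted p = 0.0431), the 1 member to do so without the block. It read 6.38 and 6.49 in deprived fasted worms, 5.92 and 6.07 in deprived fed worms, 6.02 and 5.91 in fasted worms with cholesterol, and 5.50 and 5.79 in fed worms with cholesterol. Its average deprivation difference of 0.41 was called with the block (adjusted p = 0.0229, against 0.0601 without the block).

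The body wall troponin C gene pat-10, the calcium sensor of the thin filament, fell on average with fasting (-0.72 ± 0.18, adjusted p = 0.0482). Its arrays read 11.23 and 10.45 in deprived fasted worms, 11.75 and 11.78 in deprived fed worms, 11.96 and 11.47 in fasted worms with cholesterol, and 12.21 and 12.25 in fed worms with cholesterol. Fed replicates lay close together, and fasted replicates lay further apart. With the block pat-10 also fell with fasting in deprived worms (-0.92, adjusted p = 0.0306) and on average with deprivation (-0.67, adjusted p = 0.024). Tropomyosin, lev-11, was called in no contrast, with arrays between 8.39 and 8.95 and an average fasting difference of -0.11 ± 0.12. Cofilin, unc-60, which severs actin filaments, stayed between 11.73 and 12.21 with an average fasting difference of -0.08 ± 0.12, but the locus encodes a muscle and a nonmuscle form that the probe set was not shown to separate.

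Most thick-filament genes had negative fasting differences, several with wide spread between replicates. Averaged over cholesterol states, 3 of 7 (42.9%) fell (unc-54, unc-15 and mlc-1), against 5.32% of all genes, 0 rose, and the median difference was -0.60. The major body wall myosin heavy chain, unc-54, read 7.25 and 7.57 in deprived fasted worms, 8.42 and 9.28 in deprived fed worms, 8.19 and 8.39 in fasted worms with cholesterol, and 8.60 and 9.38 in fed worms with cholesterol. The fed replicates lay 0.86 and 0.79 apart, yet all 4 fasted arrays were below all 4 fed arrays. On average it fell by 1.07 ± 0.23 (adjusted p = 0.0299, 2.10-fold), with -1.44 ± 0.33 in deprived worms (adjusted p = 0.0742) and -0.70 ± 0.33 with cholesterol (adjusted p = 0.247). With the block these passed at adjusted p = 0.00218 and 0.035, as did its deprivation differences in fasted worms (-0.88, adjusted p = 0.0346) and on average (-0.51, adjusted p = 0.0382).

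Paramyosin, unc-15, the core of the thick filament, was the thick-filament gene called in a simple contrast without the block. It read 9.18 and 9.20 in deprived fasted worms, 10.03 and 10.18 in deprived fed worms, 10.13 and 10.52 in fasted worms with cholesterol, and 10.43 and 10.79 in fed worms with cholesterol. The deprived fasted worms stood below every other array. Fasting lowered it in deprived worms (-0.92 ± 0.17, adjusted p = 0.0379), and deprivation lowered it in fasted worms (-1.13 ± 0.17, adjusted p = 0.0315). Its fasting difference with cholesterol was -0.28 ± 0.17 (adjusted p = 0.351). The interaction was -0.63 ± 0.24 (adjusted p = 0.472), and 0 of its other 2 probe sets were called, although both had the same sign.

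The other myosin heavy chain, myo-3, which starts filament assembly at the centre of the thick filament, fell on average with deprivation (-0.56 ± 0.10, adjusted p = 0.032). Its arrays read 6.55 and 6.23 in deprived fasted worms, 7.02 and 6.77 in deprived fed worms, 7.17 and 7.10 in fasted worms with cholesterol, and 7.36 and 7.19 in fed worms with cholesterol. All 4 deprived arrays lay below all 4 arrays with cholesterol, which held for 2 of 35 members, myo-3 and mlc-2, and for 2.51% of all genes. With the block myo-3 also fell with deprivation in fasted worms (-0.74, adjusted p = 0.00919), with fasting in deprived worms (-0.51, adjusted p = 0.0267) and on average with fasting (-0.33, adjusted p = 0.0192).

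The regulatory light chain gene mlc-1 fell on average with fasting (-0.87 ± 0.22, adjusted p = 0.047), and read 9.34 and 8.34 in deprived fasted worms, 9.87 and 9.61 in deprived fed worms, 9.39 and 9.03 in fasted worms with cholesterol, and 10.19 and 9.92 in fed worms with cholesterol. With the block it fell in both fasting contrasts (adjusted p = 0.0235 without and 0.0221 with cholesterol). Its near copy mlc-2 (average -0.20 ± 0.14) is represented only by probe sets ending in _x_at, so signals of the pair may not be separate. With the block mlc-2 fell with deprivation in fasted worms (-0.76, adjusted p = 0.027) and on average (-0.53, adjusted p = 0.015). The essential light chain mlc-3 differed by -0.63 ± 0.18 on average with fasting (adjusted p = 0.0721, and 0.013 with the block). The myosin chaperone gene unc-45 was called in no contrast and lay between 7.98 and 8.43 on all 8 arrays.

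At the M-line and among the giant kinases, 0 of 5 genes were called by limma in either fasting contrast, and an unadjusted p under 0.05 was reached by 0 genes without cholesterol and 1 with it. The titin-like gene ttn-1 rose with deprivation in fasted worms (1.03 ± 0.13, adjusted p = 0.0161) and on average (0.65 ± 0.09, adjusted p = 0.0139). It read 7.64 and 7.36 in deprived fasted worms, 7.19 and 7.30 in deprived fed worms, 6.56 and 6.37 in fasted worms with cholesterol, and 6.95 and 7.02 in fed worms with cholesterol. All 4 deprived arrays were above all 4 arrays with cholesterol. This rests on 1 of 6 probe sets: of the other 5, 1 had the same sign in fasted worms and 0 were called, and with the mean over all 6 the rise was not called. Its fasting difference with cholesterol, -0.52, was called with the block (adjusted p = 0.0355, against 0.0728 without the block). Twitchin, unc-22, and the obscurin-like unc-89, both giant kinases of the sarcomere, averaged differences of 0.07 ± 0.10 and -0.24 ± 0.14 with fasting. The M-line genes unc-96 and unc-98 averaged 0.14 ± 0.13 and 0.13 ± 0.10.

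All 4 genes of the dense body and Z-disc read lower in fasted worms, with no overlap between the 4 fasted and the 4 fed arrays in any of them. That held for 6.26% of all genes. On average 3 of the 4 (75%) fell, against 5.32% of all genes, with a median of -0.78. The alpha-actinin gene atn-1, which cross-links actin, read 7.96 and 7.53 in deprived fasted worms, 8.80 and 8.55 in deprived fed worms, 7.67 and 7.45 in fasted worms with cholesterol, and 8.53 and 8.68 in fed worms with cholesterol. It fell by 0.92 ± 0.17 without cholesterol (adjusted p = 0.0371) and by 1.04 ± 0.17 with it (adjusted p = 0.0182). Deprivation differences were 0.19 ± 0.17 in fasted and 0.07 ± 0.17 in fed worms, neither called.

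The ALP-Enigma gene alp-1, a partner of alpha-actinin, read 7.25 and 6.85 in deprived fasted worms, 7.80 and 7.82 in deprived fed worms, 6.95 and 6.76 in fasted worms with cholesterol, and 7.55 and 7.88 in fed worms with cholesterol. It fell with cholesterol (-0.86 ± 0.17, adjusted p = 0.0356), and its difference without was -0.76 ± 0.17 (adjusted p = 0.07, and 0.0312 with the block). The gene dim-1, which encodes an immunoglobulin-domain protein that helps hold thin filaments in place, read 8.26 and 7.93 in deprived fasted worms, 8.72 and 8.84 in deprived fed worms, 8.53 and 8.08 in fasted worms with cholesterol, and 8.90 and 9.35 in fed worms with cholesterol. On average it fell by 0.75 ± 0.15 (adjusted p = 0.0211), and with the block also in fasting with cholesterol (-0.82, adjusted p = 0.036). Vinculin, deb-1, had the smallest difference of the 4 (-0.36 ± 0.10, adjusted p = 0.0714, and 0.0248 with the block).

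**Figure D3:**
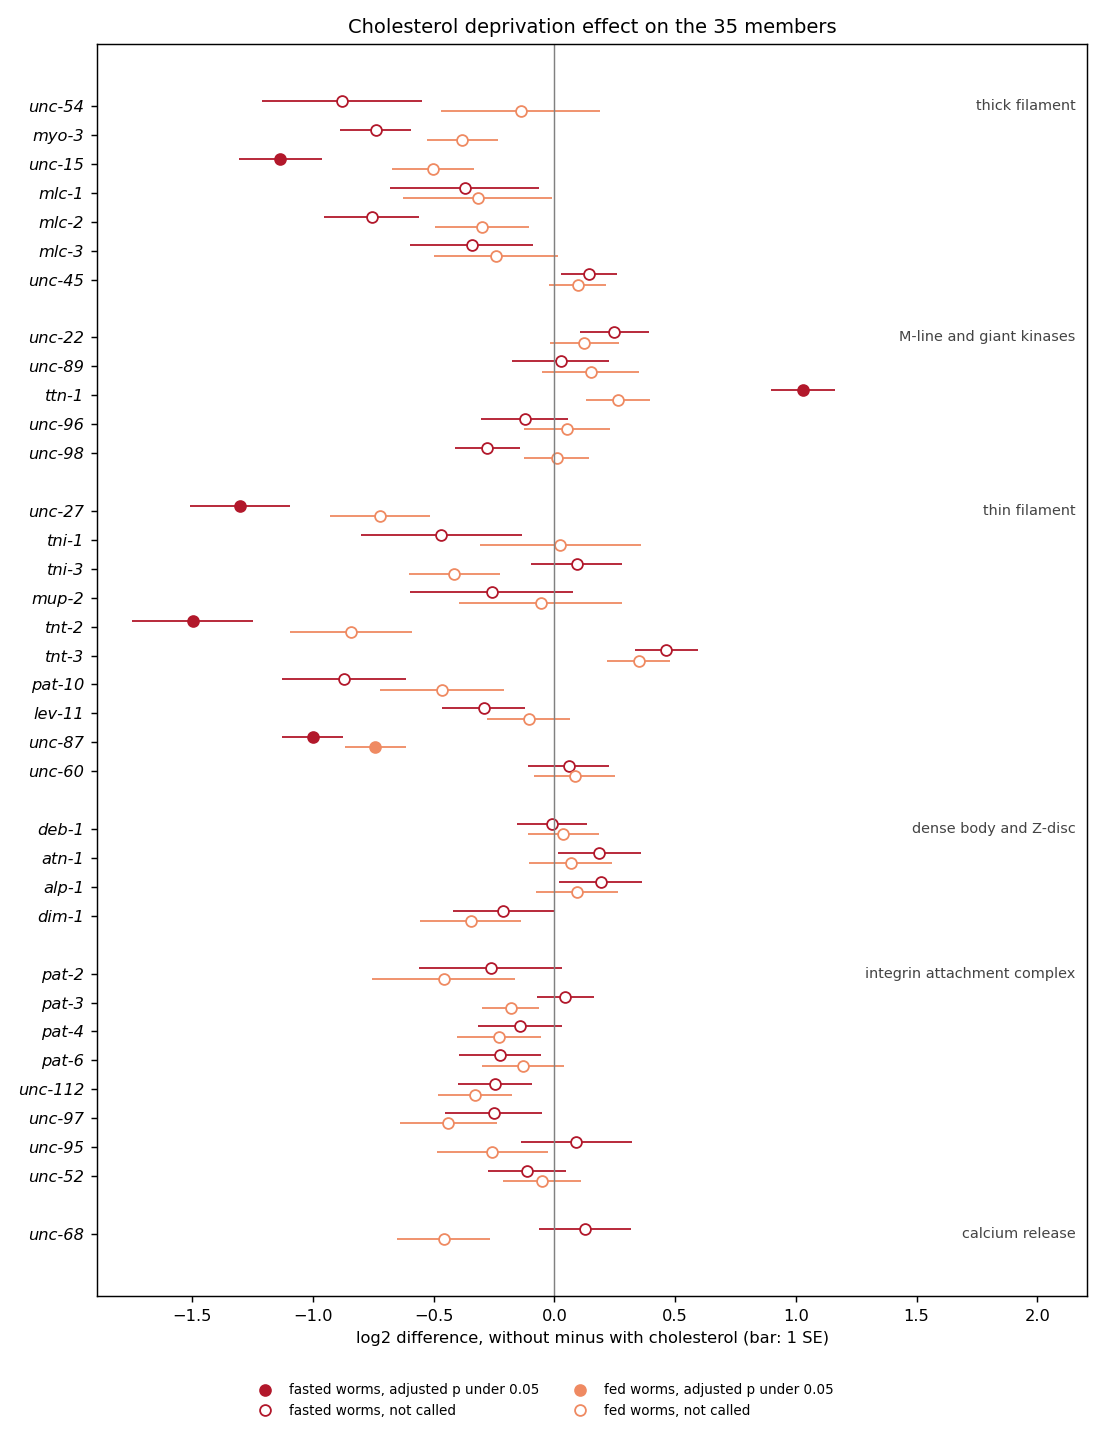
Deprivation effect on each of the 35 members, ordered by role, as the log2 difference of worms without minus with cholesterol with bars of 1 SE, in fasted (red) and fed (orange) worms; filled points passed an adjusted p of 0.05. The falls of unc-27, tnt-2 and unc-15 and the rise of ttn-1 were called in fasted worms alone, and the fall of unc-87 in both states. The dense body genes lie between -0.35 and 0.19 in the 2 states, and all 8 integrin attachment genes lie between -0.46 and -0.05 in fed worms, in neither role with a call.

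In the integrin attachment complex 0 of 8 genes passed by limma in any of the 7 contrasts without the block, and at most 2 had an unadjusted p under 0.05 in a contrast. With the block there were 4 calls, of unc-95, pat-6 and unc-97. Each is 1 of 8 genes (12.5%). Of all genes 7.31% fell in fasting with cholesterol. On average with fasting 9.47% fell and 10.7% rose, and on average with deprivation 4.98% fell. In deprived worms the fasting differences of the 8 genes ran between -0.31 and 0.31 (smallest adjusted p = 0.466 without the block). With cholesterol they ran between -0.66 and 0.36 (smallest adjusted p = 0.143 without the block). The beta-integrin gene pat-3 stayed between 11.26 and 11.55 on all 8 arrays, and the alpha-integrin gene pat-2 varied more within groups (7.36 and 6.49 in fasted worms with cholesterol). The parvin gene pat-6 read higher in fasted worms, with 9.31 and 9.13 in deprived fasted worms, 9.12 and 8.80 in deprived fed worms, 9.65 and 9.24 in fasted worms with cholesterol, and 9.09 and 9.08 in fed worms with cholesterol, and its average fasting difference (0.31 ± 0.12) had an adjusted p of 0.161, and of 0.0389 with the block.

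Among the other cytoplasmic partners, the integrin-linked kinase gene pat-4, the kindlin gene unc-112 and the PINCH gene unc-97 averaged -0.16 ± 0.12, 0.13 ± 0.11 and 0.22 ± 0.14 with fasting. The LIM-domain gene unc-95 had the largest difference, -0.48 ± 0.16 (adjusted p = 0.112), and with the block it fell on average (adjusted p = 0.00361) and in fasting with cholesterol (-0.66, adjusted p = 0.00715). The average deprivation difference of unc-97, -0.35, was called with the block (adjusted p = 0.0332, against 0.28 without the block). Perlecan, unc-52, the extracellular anchor, averaged -0.25 ± 0.11 (adjusted p = 0.223). With deprivation all 8 differences were negative in fed worms, between -0.46 and -0.05, with 0 called (smallest adjusted p = 0.395). The ryanodine receptor gene unc-68 was not called either: its fasting difference was 0.09 ± 0.19 in deprived worms and -0.49 ± 0.19 with cholesterol (adjusted p = 0.178). Another unc-68 probe set, whose name has neither ending, fell in fasting with cholesterol (-0.89 ± 0.18, adjusted p = 0.0392), and its remaining probe set differed by 0.20 ± 0.13.

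Probe sets limit several of these calls. The brightest probe set had a name ending in _s_at or _x_at for 22 of the 35 members, and 17 had no other kind. Over the 18 members with another kind, 1 fell in fasting without cholesterol (unc-27), 2 in fasting with it (unc-27 and unc-68), and 3 on average with fasting (unc-27, mlc-1 and dim-1). Of all genes with such a probe set, 1.82%, 2.77% and 4.68% fell. The medians of these 18 members were -0.06 without and -0.18 with cholesterol, where those of all such genes were -0.03 and 0.09. Fasting falls of unc-87, alp-1, dim-1 and pat-10 were also called on average in every further probe set of the same gene, while unc-27, tnt-2, atn-1, unc-54, mlc-1 and mup-2 had a single probe set. The further probe sets of tni-3 and unc-15 had the same sign on average but were not called.

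Other muscle gene lists were drawn from textbook knowledge, with earlier results of these data known. Of 31 further measured genes of the sarcomere and its attachments, 2 (6.45%) fell in fasting without cholesterol, against 2.09% of all genes. With cholesterol 2 (6.45%) fell, against 3.24% of all genes, and 1 (3.23%) rose, against 2.18%. The list medians were 0.05 and -0.06. With the block 3 (9.68%) and 4 (12.9%) fell, against 3.98% and 7.31% of all genes, and 1 (3.23%) rose in each, against 4.04% and 7.07%. The profilin gene pfn-3 fell in both (-1.42 ± 0.25 without and -1.56 ± 0.25 with cholesterol). The calponin-like gene clik-1 had the group order of unc-27: 8.45 and 7.66 in deprived fasted worms, 9.88 and 10.02 in deprived fed worms, 9.87 and 9.13 in fasted worms with cholesterol, and 10.67 and 10.87 in fed worms with cholesterol. It fell with fasting in deprived worms (-1.90 ± 0.30, adjusted p = 0.0209). The dystrobrevin gene dyb-1, named after its value was seen, fell with cholesterol (-0.51), and the actin-disassembly gene unc-78 rose (0.60 ± 0.13, adjusted p = 0.0486).

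Of 19 genes of muscle calcium handling and excitation, 2 (10.5%) rose in fasting with cholesterol, against 2.18% of all genes. These were the potassium channel gene shk-1 (0.49) and the sodium-calcium exchanger gene ncx-1 (0.72, named after its value was seen). With the block 2 (10.5%) rose, against 7.07% of all genes, and 1 (5.26%) fell, against 7.31%. The muscle potassium channel gene twk-18 fell with fasting in deprived worms (-0.75 ± 0.15, adjusted p = 0.0436) and with deprivation in fasted worms (-0.86 ± 0.15, adjusted p = 0.0466). By limma 0 of 16 receptor and clustering genes of the neuromuscular junction were called in any of the 7 contrasts, with 1 to 4 at an unadjusted p under 0.05. Of 15 measured genes of muscle protein quality control, 0 were called by limma in either fasting contrast (unadjusted p under 0.05 in 1 without cholesterol and 2 with it). With the block 0 were called without cholesterol. With it 2 (13.3%) fell, against 7.31% of all genes, and 1 (6.67%) rose, against 7.07%. The ubiquitin ligase gene chn-1 rose on average with deprivation (0.47 ± 0.09, adjusted p = 0.0321).

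Some genes of the basement membrane under the muscle and of the epidermal attachments beyond it also fell with fasting. The median of 17 basement membrane genes was 0.09 in fasting without cholesterol, -0.31 with it and -0.07 on average. For all genes these medians were -0.02, 0.08 and 0.03. Averaged over cholesterol states, 5 of 17 basement membrane genes (29.4%) fell with fasting, against 5.32% of all genes: mig-17, let-2, mig-6 and, named after their values were seen, emb-9 (-1.43) and nid-1 (-1.17). The ADAMTS protease gene mig-17 read 5.41 and 5.24 in deprived fasted worms, 6.67 and 6.95 in deprived fed worms, 5.30 and 5.27 in fasted worms with cholesterol, and 6.85 and 7.01 in fed worms with cholesterol. It fell by 1.49 ± 0.13 without cholesterol (adjusted p = 0.00146) and by 1.65 ± 0.13 with it (adjusted p = 0.000781). The type IV collagen gene let-2 fell by 1.51 ± 0.27 in deprived worms (adjusted p = 0.0304). Of 9 measured genes of the fibrous organelles, which carry force across the epidermis, mua-6 fell in both fasting contrasts (-1.17 ± 0.20 without and -1.12 ± 0.20 with cholesterol). With the block 5 and 6 basement membrane genes fell in fasting without and with cholesterol, against 2 in each without the block, and 2 and 3 fibrous organelle genes fell, against 1 in each. With the block these are 29.4% and 35.3% of the basement membrane genes and 22.2% and 33.3% of the fibrous organelle genes. Of all genes 3.98% and 7.31% fell with it. In each fasting contrast 1 basement membrane gene (5.88%) rose with the block, against 4.04% of all genes without and 7.07% with cholesterol.

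**Figure D4:**
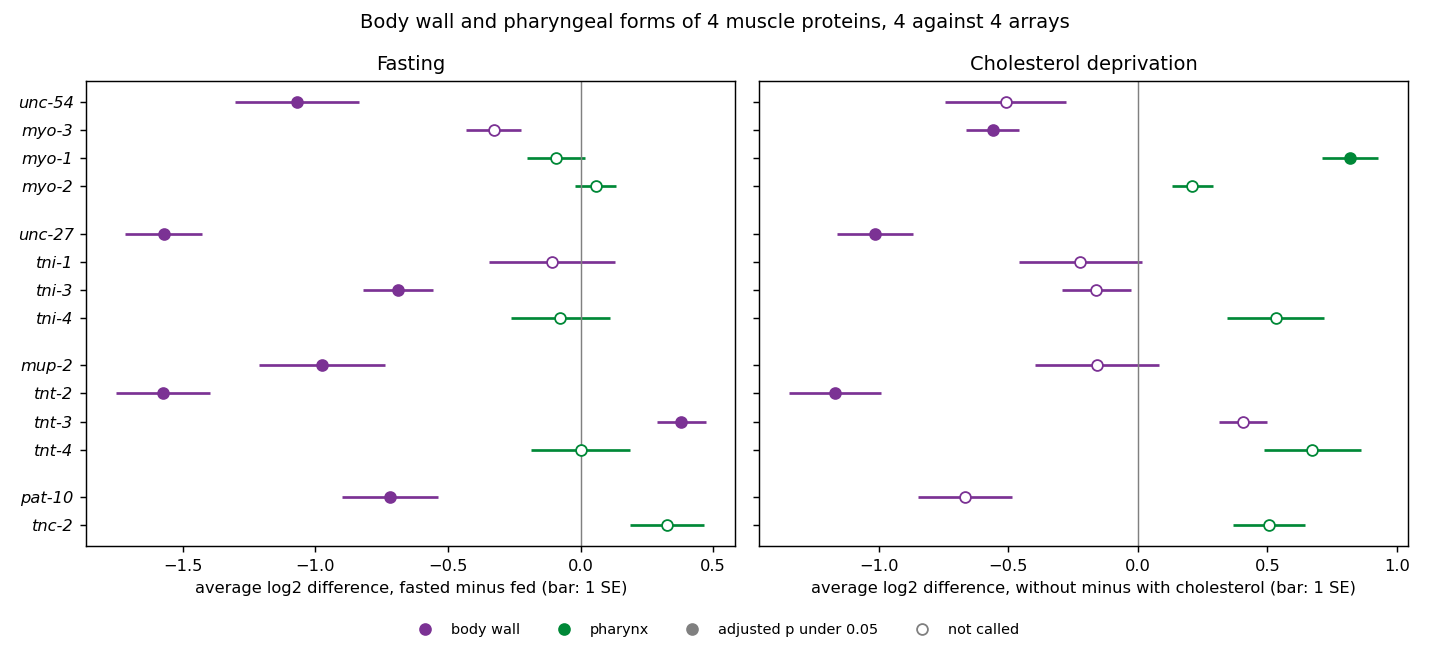
Average effects of fasting (left) and of deprivation (right) on body wall (purple) and pharyngeal (green) forms of myosin heavy chain, troponin I, troponin T and troponin C, as log2 differences with bars of 1 SE; filled points passed an adjusted p of 0.05. With fasting, the pharyngeal genes lie between -0.09 and 0.33 and none was called without the block, and with deprivation they lie above 0, with myo-1 called.

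The pharynx, the feeding pump, has its own forms of several of these proteins. Of 9 measured pharyngeal muscle genes, 0 were called by limma in either fasting contrast, and 1 had an unadjusted p under 0.05 in each. Averaged over cholesterol states, the pharyngeal myosin gene myo-1 differed by -0.09 ± 0.11, the troponin I gene tni-4 by -0.08 ± 0.19, the troponin T gene tnt-4 by 0.00 ± 0.19 and the troponin C gene tnc-2 by 0.33 ± 0.14. With deprivation myo-1 rose in fed worms (0.99 ± 0.15, adjusted p = 0.033) and on average (0.82 ± 0.11, adjusted p = 0.0104), and the receptor subunit gene eat-2 rose on average (0.34 ± 0.07, adjusted p = 0.0408). The myo-1 arrays read 8.40 and 8.19 in deprived fasted worms, 8.65 and 8.47 in deprived fed worms, 7.77 and 7.52 in fasted worms with cholesterol, and 7.42 and 7.71 in fed worms with cholesterol. Another pharyngeal myosin gene, myo-2, was called in no contrast. It read 5.88 and 5.80 in deprived fasted worms and 5.95 and 6.12 in deprived fed worms. With cholesterol it read 5.96 and 5.80 in fasted worms and 5.60 and 5.55 in fed worms.

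Set beside these, the body wall forms differed among themselves with fasting. Averages were -1.07 ± 0.23 for unc-54, -1.57 ± 0.15 for unc-27, -1.57 ± 0.18 for tnt-2 and -0.72 ± 0.18 for pat-10, all called. Also called lower were mup-2 (-0.97) and tni-3 (-0.69), while tnt-3 (0.38) was called higher. Not called without the block were myo-3 (-0.33) and tni-1 (-0.11). With the block, the pharyngeal genes tnc-2 rose (adjusted p = 0.0372) and eat-2 fell (-0.24, adjusted p = 0.0474) on average with fasting. That is 11.1% of the measured pharyngeal genes in each direction, against 9.47% lower and 10.7% higher of all genes. With deprivation averages were -0.51 ± 0.23 for unc-54, -1.01 ± 0.15 for unc-27, -1.17 ± 0.18 for tnt-2 and -0.67 ± 0.18 for pat-10, of which unc-27 and tnt-2 were called. Of the further body wall forms, myo-3 (-0.56) was called lower. Not called without the block were tni-1 (-0.22), tni-3 (-0.16), mup-2 (-0.16) and tnt-3 (0.41, the sign of the pharyngeal forms). The pharyngeal forms tni-4, tnt-4 and tnc-2 averaged 0.53, 0.67 and 0.51 with deprivation, called with the block (adjusted p = 0.0295, 0.0186 and 0.0115) and not without. Whether a body wall form and its pharyngeal counterpart differed in their change was not tested.

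Markers of other tissues moved beside the fasting contrasts. The 15 intestinal markers summed to 16206 to 18333 units in deprived fasted worms, 29654 to 31288 in deprived fed worms, 16955 to 18538 in fasted worms with cholesterol, and 33600 to 36246 in fed worms with cholesterol. In fasting without cholesterol 5 of them fell (33.3%), against 2.09% of all genes. With cholesterol 6 fell (40%), against 3.24%, and 1, pept-1, rose (6.67%), against 2.18%. With the block 9 fell in each (60%), against 3.98% of all genes without and 7.31% with cholesterol. Of the intestinal markers asp-1 fell by 3.02 ± 0.18 and pgp-1 by 2.34 ± 0.18 in deprived worms. The 35 body wall members summed to 17740 to 20058 units in deprived fasted worms, 24448 to 25492 in deprived fed worms, 23004 to 25913 in fasted worms with cholesterol, and 29821 to 30548 in fed worms with cholesterol. Epidermal markers had 0 of 13 called by limma in either fasting contrast (unadjusted p under 0.05 in 7 without and 5 with cholesterol). Under the block 4 fell in fasting without cholesterol (30.8%, against 3.98% of all genes) and 1 with it (7.69%, against 7.31%). Without the block 4 were lower on average (30.8%, against 5.32%): col-12, dpy-13, sqt-3 and, named after its value was seen, col-19. The epidermal markers summed to 3059 to 4507 units in deprived fasted worms, 6483 to 7580 in deprived fed worms, 3751 to 5693 in fasted worms with cholesterol, and 6917 to 8908 in fed worms with cholesterol.

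Of 19 neuronal markers 1 (5.26%) rose in each fasting contrast, unc-18 (0.74 ± 0.11 without and 0.64 ± 0.11 with cholesterol). Of all genes 1.07% rose without and 2.18% with cholesterol. With the block 2 neuronal markers (10.5%) rose in each, against 4.04% and 7.07% of all genes, and 1 (5.26%) fell with cholesterol, against 7.31%. Of 14 embryonic markers sdz-1 rose in both fasting contrasts (1.64 ± 0.31 without and 2.07 ± 0.31 with cholesterol) and med-1 rose with cholesterol (0.57 ± 0.12). That is 7.14% of them without and 14.3% with cholesterol, against 1.07% and 2.18% of all genes. Of 17 germline and oocyte markers 0 were called by limma in either fasting contrast, with an unadjusted p under 0.05 in 1 without and 5 with cholesterol. With the block 3 (17.6%) fell with cholesterol, against 7.31% of all genes. Among 8 nonmuscle contractile genes, the intestinal actin act-5 alone (12.5%) fell in the fasting contrasts (-1.65 ± 0.15 without and -1.51 ± 0.15 with cholesterol), where 2.09% and 3.24% of all genes did. No marker was at 0 on any array. The part of these shifts in the falls of the muscle genes was not tested.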

How the data were processed

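Total RNA of whole worms was biotin-labelled (100 ng per array) and hybridised to a 1-colour Affymetrix array, per the labels' protocols. The deposited table holds an intensity per probe set and array, which the submitters' processing notes credit to RMA, robust multi-array average, with no version. The values are on a linear scale, and RMA equalises the distributions of the arrays, so a change in total RNA would not show. Precision is limited by having 2 arrays per group.

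Control probe sets (77 of 22625) were left out. The platform annotation gave 1 symbol to 20766 probe sets, several to 887 and none to 895. Of the former kind, 20701 were found by gene number in the WBcel235 table of RefSeq, used for names, as were all 35 members. Each gene was represented by its brightest probe set. Values were taken as log2(signal + 1), which understates changes of dim genes, and fitted over all 22548 probe sets with limma 3.58.1 in R 4.3.3 (lmFit, eBayes, 1 mean per group, 4 residual and 3.37 prior degrees of freedom, two-sided, Benjamini-Hochberg over all probe sets of a contrast). Figures used matplotlib 3.10.9. The fit was run on simulated arrays with independent noise on each array and known changes in a single group. It therefore did not cover deviations shared by same-numbered arrays, and it is no test of the calls given here.

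The text names all 35 members, up to 3 genes of each other list with the smallest p in a simple contrast, and the pharyngeal counterparts of members. Members and lists were chosen with earlier results of these data known. The 2 arrays of a group are described as independent replicates, numbered 1 and 2 in every group. No label says that a number marks a shared day. Over all probe sets, the deviations of same-numbered arrays from their group means correlated in each of the 6 pairs of groups (r = 0.218 to 0.530). The numbers were therefore taken to pair the arrays, on the data alone. The fit without the block stays the one behind the calls, and results with the block are given where they change a member's call or move a count. The alternatives were another choice of probe set (without names ending in _s_at or _x_at, or the mean over all), a block for the replicate number, cyclic loess between arrays, a shift to an equal median of the bright probe sets, leaving out the dimmest 40%, a pseudocount of 16, and leaving out each array.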

Additional observations from a re-analysis of the deposited data

How the results depend on the processing

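No called member changed its sign under any alternative run for it. Not all of these could change a sign: the block and the dim filter leave each difference as it was. So does leaving out an array that a contrast does not use. For genes with a single probe set, as unc-27, tnt-2 and atn-1, the choice of probe set could not change a difference either. Further probe sets of a gene could still differ in sign, as those of ttn-1 did. The choice of probe sets without _s_at or _x_at endings could not be run for unc-87, tnt-2, atn-1 and alp-1, which leaves 14 alternatives for them and 15 for unc-27. The calls kept under every alternative run for the gene were those of unc-27 and unc-87 in fasting without cholesterol, of unc-27, tnt-2, unc-87, atn-1 and alp-1 in the average fasting effect, and of unc-87 in the average deprivation effect, and each other call was lost under at least 1. Members called numbered 6 in fasting with cholesterol, 5 in fasting without it, 5 in deprivation of fasted worms, 1 in deprivation of fed worms, 13 in the average fasting effect, 6 in the average deprivation effect and 0 in the interaction. In that order but without the interaction, the counts were 2, 1, 2, 0, 3 and 2 over the 18 members with a probe set not ending in _s_at or _x_at. With a pseudocount of 16, they were 3 and 3 in fasting with and without cholesterol and 2 and 0 in deprivation of fasted and fed worms. Deprivation of fasted worms had 3 calls with cyclic loess and 3 with the mean over probe sets, and deprivation of fed worms had 0 with either, with the bright-set shift and with the dim filter. Without each array in turn, the counts ran between 0 and 7 in fasting with cholesterol, 2 and 7 in fasting without it, 0 and 3 in deprivation of fasted worms, 0 and 1 in deprivation of fed worms, 5 and 12 in the average fasting effect, and 2 and 7 in the average deprivation effect. The average fasting count was 5 to 8 without the second deprived fasted array, either deprived fed array, either array of fasted worms with cholesterol or the second of fed worms with cholesterol. Fasting without cholesterol had 2 to 3 calls without the second deprived fasted or either deprived fed array, and fasting with it had 3 without either deprived fed array. The average deprivation count was 2 to 3 without the first deprived fed array, the first array of fasted worms with cholesterol or either of fed worms with cholesterol. For deprivation of fasted worms each array left out gave 3 or fewer calls. With the replicate number as a block, 12 and 11 members were called in fasting with and without cholesterol, 8 in deprivation of fasted worms, 11 in the average deprivation effect and 18 in the average fasting effect. Calls over all genes rose as well: 7.31% lower and 7.07% higher in fasting with cholesterol, 3.98% and 4.04% in fasting without it, 1.5% and 2.16% in deprivation of fasted worms, 4.98% and 4.64% in the average deprivation effect, and 9.47% and 10.7% in the average fasting effect. The block changed no call of a member in deprivation of fed worms or in the interaction. The causes were not tested, except that the smaller probe-set choice leaves fewer genes to call.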
